A study of Arabidopsis thaliana with 18 samples.

Results

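The genes described here belong to the response and transport of auxin, the plant growth hormone indole-3-acetic acid. They were chosen by gene symbol: the Aux/IAA, ARF, SAUR and GH3 families, the PIN, PILS and AUX1/LAX carriers, the TIR1/AFB receptors, the AXR genes and the YUC, TAA1 and TAR synthesis genes. The rule found 52 of the 11437 genes in the table, and 46 of them had enough counts to be tested. By role they were 2 synthesis genes, 5 receptor and receptor-linked genes, 16 Aux/IAA genes, 9 ARF genes, 6 carriers, 4 GH3 genes and 9 SAUR genes, and 1 gene that carried a SAUR symbol only. Other members of these families were not analysed here.

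Auxin is made from tryptophan by the TAA1/TAR aminotransferases and the YUC monooxygenases and is moved between cells by AUX1/LAX importers and PIN exporters. It is perceived by the F-box proteins TIR1 and AFB, which with auxin bind Aux/IAA repressors and send them for degradation, and this frees ARF transcription factors to act on their targets. Classical early targets are the Aux/IAA genes themselves, the GH3 genes, whose enzymes join auxin to amino acids, and the SAUR genes, whose small proteins promote cell expansion.

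RNA was sequenced from whole Arabidopsis thaliana seedlings of the ecotype Col-0, 14 d old and grown on half-strength MS medium with days and nights of equal length. Zeitgeber time (ZT) is given in hours after dawn. Seedlings were collected at ZT 2 after a move, just before dawn, to medium with 10 µM DPI, 25 µM PI, 12.5 µM AEG or 2 µM TYR, or with the solvent DMSO at 0.1% by volume, and untreated seedlings were collected at ZT 0, with 3 libraries in each of the 6 groups. PI, AEG and TYR stand for pentamidine isethionate, AEG3482 and Tyrphostin AG879, matched by their letters. No full name is given for DPI. All groups are wild type. No untreated seedlings were collected at ZT 2, so every comparison with untreated seedlings joins light, time, the move to new medium and the solvent or chemical. These cannot be told apart. In whole seedlings a change in the share of a tissue and a change in RNA per cell cannot be told apart either.

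Counts over the listed genes totalled between 3156993 and 3249697 per library. FSD1, the iron superoxide dismutase, set some ZT 2 libraries apart: 5 of the 15, 1 in each medium, had between 961 and 1670 CPM (counts scaled to the library total), the other 10 had at most 4.46 CPM, and the untreated libraries had between 1690 and 1750 CPM. The 5 were replicate 1 in DMSO, DPI, PI and AEG medium and replicate 3 in TYR medium. LOX2, a lipoxygenase of jasmonate synthesis, ranged from 1060 to 7990 CPM at ZT 2 and from 85.2 to 131 CPM in untreated libraries. Fits that leave out those 5 libraries or take either gene as a covariate are given beside the results, and the part of these genes' levels was not tested otherwise.

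The largest changes among the auxin genes were in a cluster of SAUR genes on chromosome 5. Their coding sequences are shown because the 4 genes are near copies of each other. The sequences were read from the RefSeq assembly TAIR10.1, 5′ to 3′, and capitals mark each aligned position that is not alike in all 4 genes. SAUR20 has 276 coding bases and the others 273. The capital TGA that ends SAUR20 stands opposite gaps, while all 4 sequences end in the same stop codon. SAUR20 (AT5G18020) lies at chr5:5966183-5966785 on the minus strand, SAUR22 (AT5G18050) at chr5:5974341-5975087 on the minus strand, SAUR23 (AT5G18060) at chr5:5975780-5976589 on the plus strand and SAUR24 (AT5G18080) at chr5:5983683-5984308 on the plus strand.
SAUR20: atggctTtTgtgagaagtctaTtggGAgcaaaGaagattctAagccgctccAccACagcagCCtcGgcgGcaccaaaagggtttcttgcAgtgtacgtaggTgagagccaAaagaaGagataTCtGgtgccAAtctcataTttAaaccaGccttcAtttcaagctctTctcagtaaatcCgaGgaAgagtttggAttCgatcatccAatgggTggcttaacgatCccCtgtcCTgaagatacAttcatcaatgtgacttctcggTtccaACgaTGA
SAUR22: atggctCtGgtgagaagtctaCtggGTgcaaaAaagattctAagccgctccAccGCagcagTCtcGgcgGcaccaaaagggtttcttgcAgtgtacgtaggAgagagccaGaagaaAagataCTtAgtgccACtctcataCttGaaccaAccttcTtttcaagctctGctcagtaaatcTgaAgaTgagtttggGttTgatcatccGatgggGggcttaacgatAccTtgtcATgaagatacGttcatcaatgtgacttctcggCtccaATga
SAUR23: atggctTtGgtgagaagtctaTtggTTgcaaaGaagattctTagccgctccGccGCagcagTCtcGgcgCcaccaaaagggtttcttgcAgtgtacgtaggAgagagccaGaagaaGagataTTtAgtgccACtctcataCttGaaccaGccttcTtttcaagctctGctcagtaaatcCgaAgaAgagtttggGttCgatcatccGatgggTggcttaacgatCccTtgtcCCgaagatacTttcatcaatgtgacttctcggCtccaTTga
SAUR24: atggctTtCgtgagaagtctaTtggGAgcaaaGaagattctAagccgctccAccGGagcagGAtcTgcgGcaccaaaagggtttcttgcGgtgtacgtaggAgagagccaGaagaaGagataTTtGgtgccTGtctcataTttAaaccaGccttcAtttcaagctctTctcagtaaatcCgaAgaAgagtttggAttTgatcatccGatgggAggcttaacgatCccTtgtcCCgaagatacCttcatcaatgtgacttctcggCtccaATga
Of 276 aligned positions, 46 were not alike in all 4 genes, gaps included, and pairs shared between 87.7% and 93.0% of coding bases. The longest run shared by a pair of transcripts was between 31 and 49 bases, no pair shared a run of 75 bases, and the counts of all 4 genes were whole numbers in every library. How reads that match more than 1 gene were counted is not given in the sources used here.

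Upstream sequence was read for the same cluster because SAUR23 was not called at dawn while the other 3 were. The last 120 bases before the annotated start of the transcript are shown, with capitals for GAGACA, the reverse complement of the auxin response element TGTCTC, and for CATGTG, the reverse complement of CACATG, known as the hormone up at dawn element. The windows are chr5:5966786-5966905 for SAUR20 and chr5:5975088-5975207 for SAUR22, both on the minus strand, and chr5:5975660-5975779 for SAUR23 and chr5:5983563-5983682 for SAUR24, both on the plus strand.
SAUR20 upstream: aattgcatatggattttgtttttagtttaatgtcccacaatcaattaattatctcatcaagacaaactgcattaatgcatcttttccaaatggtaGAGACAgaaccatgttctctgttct
SAUR22 upstream: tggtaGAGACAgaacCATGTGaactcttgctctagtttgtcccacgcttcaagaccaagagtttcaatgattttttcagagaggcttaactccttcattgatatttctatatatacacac
SAUR23 upstream: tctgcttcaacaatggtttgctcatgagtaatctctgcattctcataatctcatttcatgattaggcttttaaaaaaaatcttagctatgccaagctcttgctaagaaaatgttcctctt
SAUR24 upstream: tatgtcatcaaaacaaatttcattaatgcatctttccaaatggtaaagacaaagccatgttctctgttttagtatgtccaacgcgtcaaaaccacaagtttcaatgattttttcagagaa
SAUR22 held GAGACA at -115 and CATGTG at -105, SAUR20 held GAGACA at -25, and SAUR23 and SAUR24 held neither in the 250 bases searched. Over all 52 genes, TGTCTC on either strand was found in 15.4% of upstream windows of 250 bases, against 10.9% of 27437 windows genome-wide. The other auxin response element form, TGTCGG, was found in 9.62%, against 4.16% genome-wide. CACATG was found in 19.2%, against 11.1%. The G-box CACGTG was found in 3.85%, against 6.49%, and the evening element AAATATCT in 3.85%, against 4.79%. No searched motif overlapped another in the 4 windows shown. These shares describe the letters in the windows and were not tested.

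In DMSO seedlings at ZT 2, compared with untreated seedlings at ZT 0, auxin genes moved in both directions. SAUR genes had the largest increases, the receptor genes TIR1, AFB5 and AFB2 fell together with AXR1, and in the ARF, carrier and Aux/IAA families single genes moved while most did not pass the test. Calls were made with edgeR (quasi-likelihood test) where p, adjusted by Benjamini-Hochberg over all genes tested, was under 0.05. Of these auxin genes 11 of the 46 tested were called higher (23.9%, against 19.6% of all 9006 genes tested) and 7 were called lower (15.2%, against 16.0% of all genes). Among those called higher, SAUR20, SAUR22, SAUR24, SAUR9 and SAUR29 would not have passed the count filter on untreated libraries alone. The share called higher is therefore not independent of that filter. In both directions together 39.1% were called, against 35.6% of all genes, so the number of calls was near the background and the number itself is no result about the auxin genes. The median log2 fold change was 0.14 over the auxin genes and 0.02 over all genes tested.

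Without the DMSO library of high FSD1 and the 4 other such libraries, 10 genes were called higher and 7 lower (37.0%, against 34.8% of all genes). In that fit AFB2, AXR1 and SAUR29 lost their calls (edgeR, adjusted p = 0.0765, 0.0578 and 0.0637). With FSD1 as a covariate 10 genes were called higher and 5 lower (32.6%, against 31.2% of all genes). That fit ended the calls of AXR1, at a log2 fold change of -0.25, ARF10, at 0.35, and ARF19, at -0.65 (edgeR, adjusted p = 0.217, 0.0909 and 0.0915). Leaving out any 1 library gave 8 to 10 genes called higher and 3 to 6 called lower. The number called lower was 3 without untreated replicate 1, without untreated replicate 2 or without DMSO replicate 2, and 4 without untreated replicate 3 or without DMSO replicate 3.

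**Figure D1:**
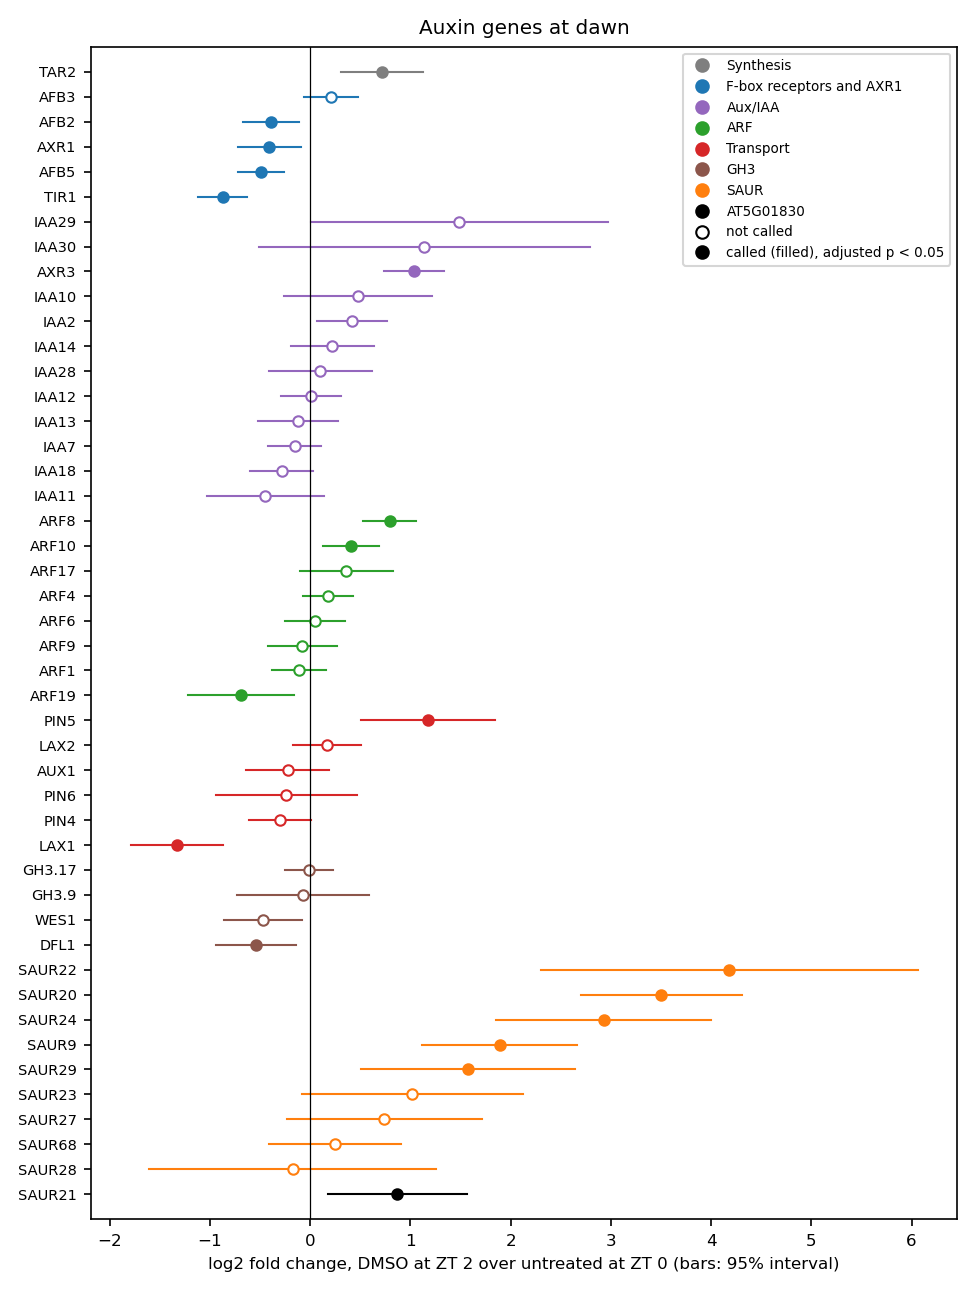
Log2 fold change of DMSO seedlings at ZT 2 over untreated seedlings at ZT 0 for the 46 tested auxin genes, grouped by role, with 95% intervals from the edgeR fit; filled points passed the adjusted threshold of 0.05. The SAUR genes reach 4.18 (SAUR22) and the lowest value is -1.33 (LAX1).

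Receptor genes were lower at ZT 2 with 1 exception. TIR1, the founding auxin receptor, had 188, 201 and 208 CPM in DMSO libraries, against 347, 382 and 364 CPM in untreated libraries. Its log2 fold change was -0.87 (SE 0.12; edgeR, adjusted p = 7.42e-06), and all 15 ZT 2 libraries, between 184 and 241 CPM, lay below all 3 untreated libraries. AFB5, the receptor with a preference for picolinate auxins, had 131, 123 and 122 CPM in DMSO libraries, against 184, 169 and 175 CPM in untreated libraries (log2 fold change -0.49, SE 0.11; edgeR, adjusted p = 0.00194). Its groups did not overlap. AFB2 had 89.8, 90.2 and 119 CPM in DMSO libraries, against 136, 132 and 125 CPM in untreated libraries. Its log2 fold change was -0.39 (SE 0.13; edgeR, adjusted p = 0.0273), and the call was lost without any 1 of 4 libraries, with an adjusted p of 0.0864 and 0.0714 without untreated replicate 1 or 2 and of 0.113 and 0.117 without DMSO replicate 1 or 2.

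AXR1, a subunit of the enzyme that starts the RUB modification of cullins in the receptor complex, had 45.4, 50.3 and 46.3 CPM in DMSO libraries, against 59.8, 65.9 and 62.5 CPM in untreated libraries. Its log2 fold change was -0.41 (SE 0.15; edgeR, adjusted p = 0.0404), and the call was lost without any 1 of the 6 libraries, with adjusted p values between 0.0566 and 0.117. AFB3 was the exception, with 111, 137 and 139 CPM in DMSO libraries, against 102, 124 and 109 CPM in untreated libraries, values that overlapped (log2 fold change 0.21, SE 0.13; edgeR, adjusted p = 0.224).

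On the TPM scale (which scales for gene length as well as library total) the 4 receptor genes made up different shares at the 2 time points. TIR1 was the highest of the 4 in every library, at 53.1 ± 3.48 TPM in DMSO libraries and 101 ± 7.24 TPM in untreated libraries (SD, n = 3 each). AFB3 averaged 41.3 ± 5.14 TPM in DMSO libraries and 37.0 ± 4.35 TPM in untreated libraries, while AFB5 averaged 35.3 ± 1.55 TPM in DMSO libraries and 51.2 ± 1.33 TPM in untreated libraries (SD, n = 3 each). AFB5 was second in every untreated library, while AFB3 and AFB5 overlapped in DMSO libraries. TIR1 made up 30.4% to 35.8% of the summed TPM of the 4 genes in the 15 ZT 2 libraries, against 43.7% to 45.7% in untreated libraries. AFB3 made up 24.4% to 28.5% at ZT 2, against 15.4% to 17.7% in untreated libraries. The shares of AFB2 and AFB5 overlapped between time points. The summed level of the 4 genes was 132 to 192 TPM at ZT 2, against 212 to 233 TPM in untreated libraries.

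**Figure D2:**
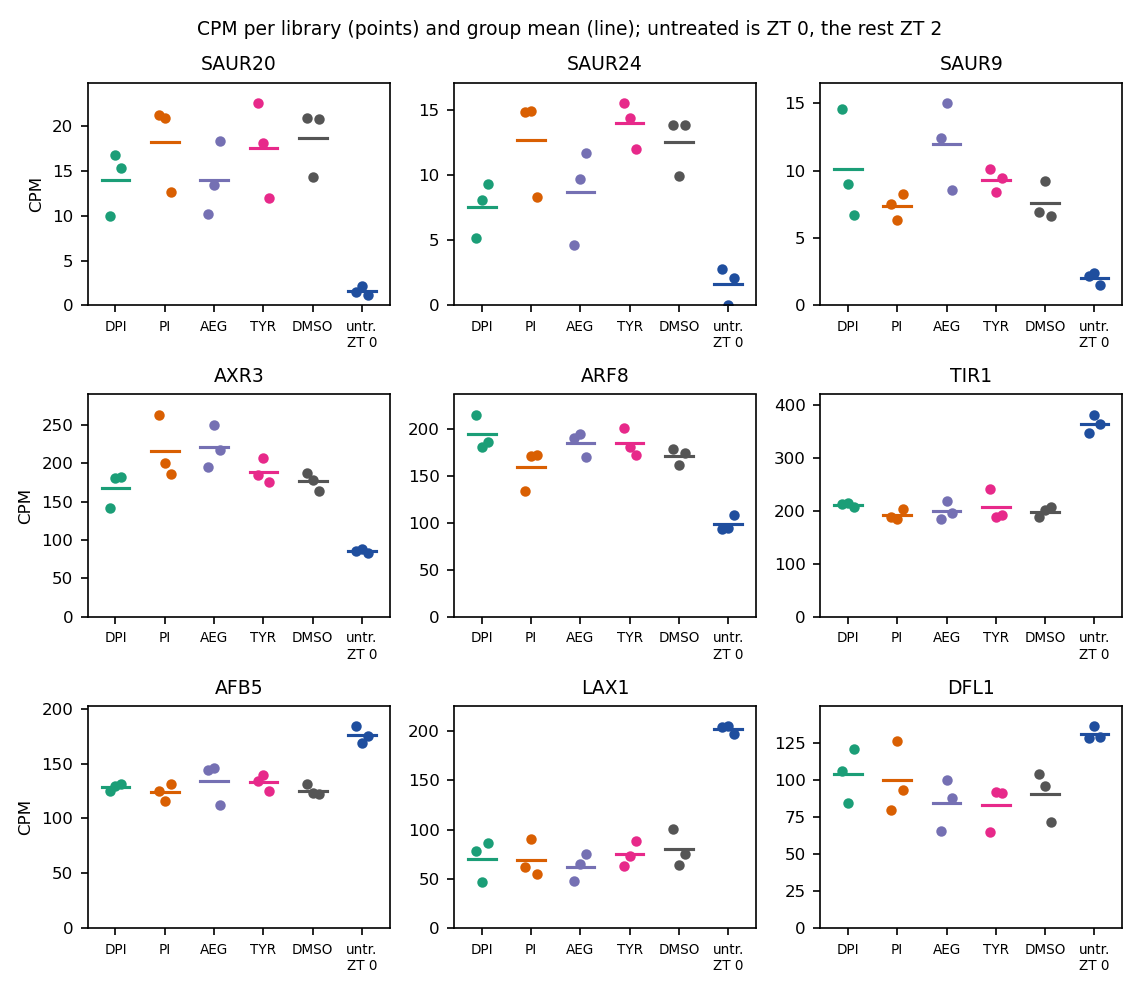
CPM of 9 auxin genes in each of the 18 libraries, as points, with the mean of each group as a line; the 5 media on the left are ZT 2 and the untreated group on the right is ZT 0. SAUR20, SAUR24, SAUR9, AXR3 and ARF8 lie above the untreated libraries in all 15 ZT 2 libraries, and TIR1, AFB5, LAX1 and DFL1 lie below them.

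The Aux/IAA genes encode the short-lived repressors. Of the 16, 12 were tested, 1 was called higher with DMSO and none was called lower, with 3 at an unadjusted p under 0.05 by edgeR and a median log2 fold change of 0.16. AXR3, also known as IAA17, had 187, 178 and 164 CPM in DMSO libraries, against 85.1, 87.9 and 83.5 CPM in untreated libraries. The groups did not overlap, and the log2 fold change was 1.04 (SE 0.14; edgeR, adjusted p = 1.23e-05). Among the other genes, chosen here after their values were seen, IAA2 had 142, 126 and 134 CPM in DMSO libraries, against 103, 104 and 92.7 CPM in untreated libraries, which did not overlap but missed the threshold (log2 fold change 0.42, SE 0.17; edgeR, adjusted p = 0.0563). IAA29, a target of the PIF light-signalling factors, had 2.50, 2.87 and 7.52 CPM in DMSO libraries, against 2.47, 0.302 and 1.78 CPM in untreated libraries, and its log2 fold change of 1.49 had a 95% interval of 0.01 to 2.97 (edgeR, adjusted p = 0.108).

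The family's summed level overlapped between time points, at 494 to 607 TPM in ZT 2 libraries and 517 to 538 TPM in untreated libraries, while the shares of IAA7 and AXR3 did not. IAA7, the most abundant Aux/IAA transcript, made up 30.3% to 38.1% of the sum at ZT 2, against 43.4% to 48.4% in untreated libraries. AXR3 made up 17.7% to 25.7% at ZT 2, against 9.02% to 9.98% in untreated libraries. IAA5, IAA15, IAA32 and IAA33 were not tested, since none of them reached 10 counts in any library.

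Of the 9 ARF genes, 8 were tested, and 2 were called higher and 1 lower. ARF8, an activating ARF of flower and hypocotyl growth, had 179, 161 and 174 CPM in DMSO libraries, against 93.4, 94.6 and 108 CPM in untreated libraries. The fitted log2 fold change was 0.80 (SE 0.12; edgeR, adjusted p = 5.04e-05), and all 15 ZT 2 libraries lay above all untreated libraries. ARF6, its close relative and like it a target of the microRNA miR167, had 128, 115 and 114 CPM in DMSO libraries, against 109, 117 and 118 CPM in untreated libraries, which overlapped (log2 fold change 0.05, 95% interval -0.25 to 0.35). ARF10, a repressing ARF targeted by miR160, had 107, 98.5 and 120 CPM in DMSO libraries, against 80.8, 78.3 and 86.2 CPM in untreated libraries (log2 fold change 0.41, SE 0.14; edgeR, adjusted p = 0.0237). ARF17, targeted by the same microRNA, had a log2 fold change of 0.36 (95% interval -0.10 to 0.83). ARF19, an activating ARF of lateral root formation, had 33.8, 31.9 and 24.4 CPM in DMSO libraries, against 50.0, 51.4 and 43.8 CPM in untreated libraries (log2 fold change -0.69, SE 0.25; edgeR, adjusted p = 0.0391).

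The calls of ARF10 and ARF19 depended on single libraries. That of ARF10 was lost without untreated replicate 1 or 2 or DMSO replicate 3, with adjusted p values of 0.061, 0.0806 and 0.1, and that of ARF19 was lost without any untreated library or without DMSO replicate 2 or 3, with adjusted p values between 0.0547 and 0.151. ARF1, ARF4, ARF6, ARF9 and ARF17 were not called, and ARF20 reached at most 6 counts in a library and was not tested.

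All 6 carrier genes were tested, and 1 rose and 1 fell. LAX1, an auxin importer of the AUX1 family, had 101, 64.4 and 74.9 CPM in DMSO libraries, against 204, 205 and 197 CPM in untreated libraries. Its log2 fold change was -1.33 (SE 0.22; edgeR, adjusted p = 9.27e-05), the largest decrease among the auxin genes, and all 15 ZT 2 libraries, between 47.2 and 101 CPM, lay below the untreated ones. The importers AUX1 and LAX2 did not pass the test, with log2 fold changes of -0.22 (95% interval -0.64 to 0.19) and 0.17 (95% interval -0.17 to 0.51). PIN5, a carrier of the endoplasmic reticulum, had 13.1, 7.01 and 8.72 CPM in DMSO libraries, against 4.63, 4.53 and 3.55 CPM in untreated libraries. The fitted log2 fold change was 1.18 (SE 0.32; edgeR, adjusted p = 0.00678), and the call was lost without DMSO replicate 1 (edgeR, adjusted p = 0.0523). PIN4, an exporter of the plasma membrane, had a log2 fold change of -0.30 (edgeR, adjusted p = 0.127) and PIN6 one of -0.24 (edgeR, adjusted p = 0.625).

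Per length, AUX1 and PIN4 were the most abundant carriers with DMSO, at 48.9 ± 9.18 and 51.0 ± 11.0 TPM (SD, n = 3 each). LAX1 averaged 27.1 ± 7.50 TPM in DMSO libraries and 64.3 ± 1.64 TPM in untreated libraries (SD, n = 3 each), a level within the spread of PIN4 and AUX1 in untreated libraries (64.9 ± 4.55 and 59.4 ± 7.31 TPM, SD, n = 3 each).

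The 4 GH3 genes encode enzymes that join auxin to amino acids and so lower its free level. DFL1 had 104, 95.6 and 71.3 CPM in DMSO libraries, against 128, 136 and 129 CPM in untreated libraries, which did not overlap. The difference was -0.54 in log2 units (SE 0.19; edgeR, adjusted p = 0.0352) and its call was lost without any 1 library other than DMSO replicate 1, with adjusted p values between 0.0593 and 0.171. WES1 had 53.8, 53.9 and 46.6 CPM in DMSO libraries, against 65.7, 75.2 and 72.6 CPM in untreated libraries, groups that did not overlap but missed the threshold (log2 fold change -0.47, SE 0.19; edgeR, adjusted p = 0.0555). GH3.17 and GH3.9 had log2 fold changes of -0.01 (95% interval -0.25 to 0.23) and -0.07 (95% interval -0.73 to 0.59).

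Of the 2 synthesis genes, TAR2, an aminotransferase that makes the precursor indole-3-pyruvate, had 37.6, 29.6 and 24.1 CPM in DMSO libraries, against 16.7, 16.9 and 21.6 CPM in untreated libraries. Its increase was 0.72 in log2 units (SE 0.20; edgeR, adjusted p = 0.00729), a call that was lost without DMSO replicate 1 (edgeR, adjusted p = 0.0529). YUC7 had 1 count in 1 TYR library and none elsewhere.

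The largest increases were among the SAUR genes. All 9 were tested, 5 were called higher and none lower, with 5 at an unadjusted p under 0.05 by edgeR and a median log2 fold change of 1.58. SAUR20, SAUR22, SAUR24, SAUR9 and SAUR27 had under 10 counts in every untreated library, and SAUR23, SAUR28 and SAUR29 in some of them. None of these would have passed the count filter on untreated libraries alone, and the 5 called were higher at ZT 2. The family's count and median are therefore not independent of that filter. SAUR20, SAUR22 and SAUR24 belong to the chromosome 5 cluster whose sequences are given above. SAUR20 had 67, 45 and 69 counts in DMSO libraries, against 5, 7 and 4 counts in untreated libraries, or 21.0, 14.3 and 20.8 CPM against 1.54, 2.11 and 1.18 CPM. Its log2 fold change was 3.50 (SE 0.38; edgeR, adjusted p = 7.64e-07), and all 15 ZT 2 libraries, between 10.0 and 22.6 CPM, lay above the untreated ones. SAUR24 had 44, 31 and 46 counts in DMSO libraries, against 9, 0 and 7 counts in untreated libraries (log2 fold change 2.93, SE 0.51; edgeR, adjusted p = 0.000165). SAUR22 had 13, 6 and 5 counts in DMSO libraries, against 0, 0 and 1 count in untreated libraries. Its ratio of DMSO to untreated was 24.7, with a 95% counting interval of 4.02 to 1010 (edgeR, adjusted p = 0.00116).

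SAUR23, which lies between SAUR22 and SAUR24, had 23, 8 and 19 counts in DMSO libraries, against 10, 10 and 5 counts in untreated libraries. Its groups overlapped, and its log2 fold change of 1.02 had a 95% interval of -0.08 to 2.12 (edgeR, adjusted p = 0.14). Per length, SAUR23 averaged 2.63 TPM in untreated libraries, against 3.23 TPM for SAUR20, 2.33 TPM for SAUR24 and 0.117 TPM for SAUR22. In DMSO libraries SAUR23 averaged 5.24 TPM, against 36.5 TPM for SAUR20, 17.6 TPM for SAUR24 and 2.79 TPM for SAUR22. The summed level of the 4 genes was 30.8 to 82.2 TPM at ZT 2, against 7.46 to 9.97 TPM in untreated libraries, and the groups did not overlap.

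SAUR9, on chromosome 4, had 6.89, 9.24 and 6.62 CPM in DMSO libraries, against 2.16, 2.42 and 1.48 CPM in untreated libraries, with no overlap (log2 fold change 1.89, SE 0.37; edgeR, adjusted p = 0.000463). SAUR29, 1 of a group of neighbouring genes on chromosome 3, had 25, 11 and 32 counts in DMSO libraries, against 12, 6 and 5 counts in untreated libraries, which overlapped (log2 fold change 1.58, SE 0.51; edgeR, adjusted p = 0.0205). Its call was lost without untreated replicate 2 or 3 or DMSO replicate 1 or 3, with adjusted p values between 0.0528 and 0.0963. Its neighbours SAUR27 and SAUR28 had log2 fold changes of 0.74 (95% interval -0.23 to 1.71) and -0.17 (95% interval -1.61 to 1.26). SAUR68, part of whose counts were not whole, was listed under the locus AT1G29490 with the gene identifier of AT1G29510, and had a log2 fold change of 0.25 (95% interval -0.41 to 0.91).

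The row with the symbol SAUR21 was kept apart. Its gene identifier belongs to AT5G01830, which RefSeq describes as an ARM repeat protein and not a SAUR, and the length implied by its counts and FPKM was 3082.4 bases, near the 2865 bases of that gene and not the 839 bases of AT5G18030, the locus that carries the name. It was called higher (log2 fold change 0.87, SE 0.33; edgeR, adjusted p = 0.0477), and the call was lost without untreated replicate 2 or 3 or DMSO replicate 2 or 3. ARF1 was listed under AT1G59750 and AT1G23490, and its implied length of 2586.4 bases was near the 2599 bases of the first, the annotated ARF1 locus.

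The same comparison in the other media used the same untreated libraries, so the values stand side by side and do not support each other. Of the 46 genes, 14 passed against untreated seedlings in DPI medium, where 40.1% of all genes did. In PI medium 16 passed, against 38.0% of all genes. In AEG medium 18 passed, against 40.0%, and in TYR medium 21 passed, against 37.4%. The log2 fold change of SAUR20 was 3.10 in DPI medium, 3.47 in PI, 3.09 in AEG, 3.42 in TYR and 3.50 in DMSO medium. For TIR1 it was -0.78 in DPI medium, -0.92 in PI, -0.87 in AEG, -0.81 in TYR and -0.87 in DMSO medium. For LAX1 it was -1.52 in DPI medium, -1.54 in PI, -1.69 in AEG, -1.43 in TYR and -1.33 in DMSO medium. For AXR3 it was 0.97 in DPI medium, 1.34 in PI, 1.37 in AEG, 1.14 in TYR and 1.04 in DMSO medium.

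With the mean of the 5 ZT 2 groups against untreated seedlings, which uses all 18 libraries, 14 auxin genes were called higher (25.5% of all genes were) and 11 lower (24.2% of all genes were). Those called higher include IAA29 and the SAUR genes that would not have passed the count filter on untreated libraries alone. The genes called in this contrast and not with DMSO alone were IAA29, IAA14 and AFB3, which were higher, and IAA11, WES1, IAA7 and PIN4, which were lower. WES1 fell by 0.49 (SE 0.14; edgeR, adjusted p = 0.00592), PIN4 by 0.39 (SE 0.11; edgeR, adjusted p = 0.00741) and IAA11 by 0.57 (SE 0.21; edgeR, adjusted p = 0.0304), all in log2 units. IAA7 fell by 0.24 (edgeR, adjusted p = 0.0434), and AFB3, IAA14 and IAA29 had log2 fold changes of 0.26, 0.38 and 1.44 with adjusted p values of 0.0419, 0.0499 and 0.0492 (edgeR). The calls of IAA7, AFB3, IAA14, IAA29, IAA11, PIN4, AXR1, ARF10, SAUR29 and SAUR21 were each lost when some single library was left out. Without untreated replicate 2 the number called higher was 9. In both directions together that fit called 37.0% of the auxin genes, against 39.2% of all genes. With FSD1 as a covariate 10 genes were called higher and 8 lower (39.1%, against 42.0% of all genes). IAA29, AFB3, IAA14, IAA11, PIN4, ARF10 and AXR1 then missed the threshold, with log2 fold changes of 0.83 for IAA29 and 0.15 for AFB3 (edgeR, adjusted p = 0.313 and 0.294).

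By CPM, 7 genes lay higher in all 15 ZT 2 libraries than in all untreated libraries (ARF8, SAUR24, SAUR22, SAUR20, SAUR9, TAR2 and AXR3), where 16.0% of all genes did, or 15.2% of the auxin genes. The SAUR genes among them passed the count filter only through ZT 2 libraries. Another 7 lay lower in all 15 (DFL1, AFB5, LAX1, WES1, TIR1, AFB2 and AXR1), where 15.5% of all genes did. With LOX2 as a covariate, SAUR20, SAUR22, SAUR24, PIN5, AXR3 and TIR1 kept their calls with DMSO and the other called genes lost theirs. In that fit 13.0% of the auxin genes were called, against 5.51% of all genes, where 39.1% and 35.6% were called without the covariate. The 13.0% includes SAUR20, SAUR22 and SAUR24 and is therefore not independent of the count filter. The log2 fold changes of some that lost the call were near the size above or larger in that fit, at -0.58 for AFB5, 0.76 for ARF8, 0.95 for TAR2, 0.83 for ARF10 and 3.03 for SAUR29, while LAX1 was at -0.51, SAUR9 at 0.51 and DFL1 at -0.20. LOX2 itself did not overlap between ZT 2 and untreated libraries, so that its level and the time point cannot be told apart.

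**Figure D3:**
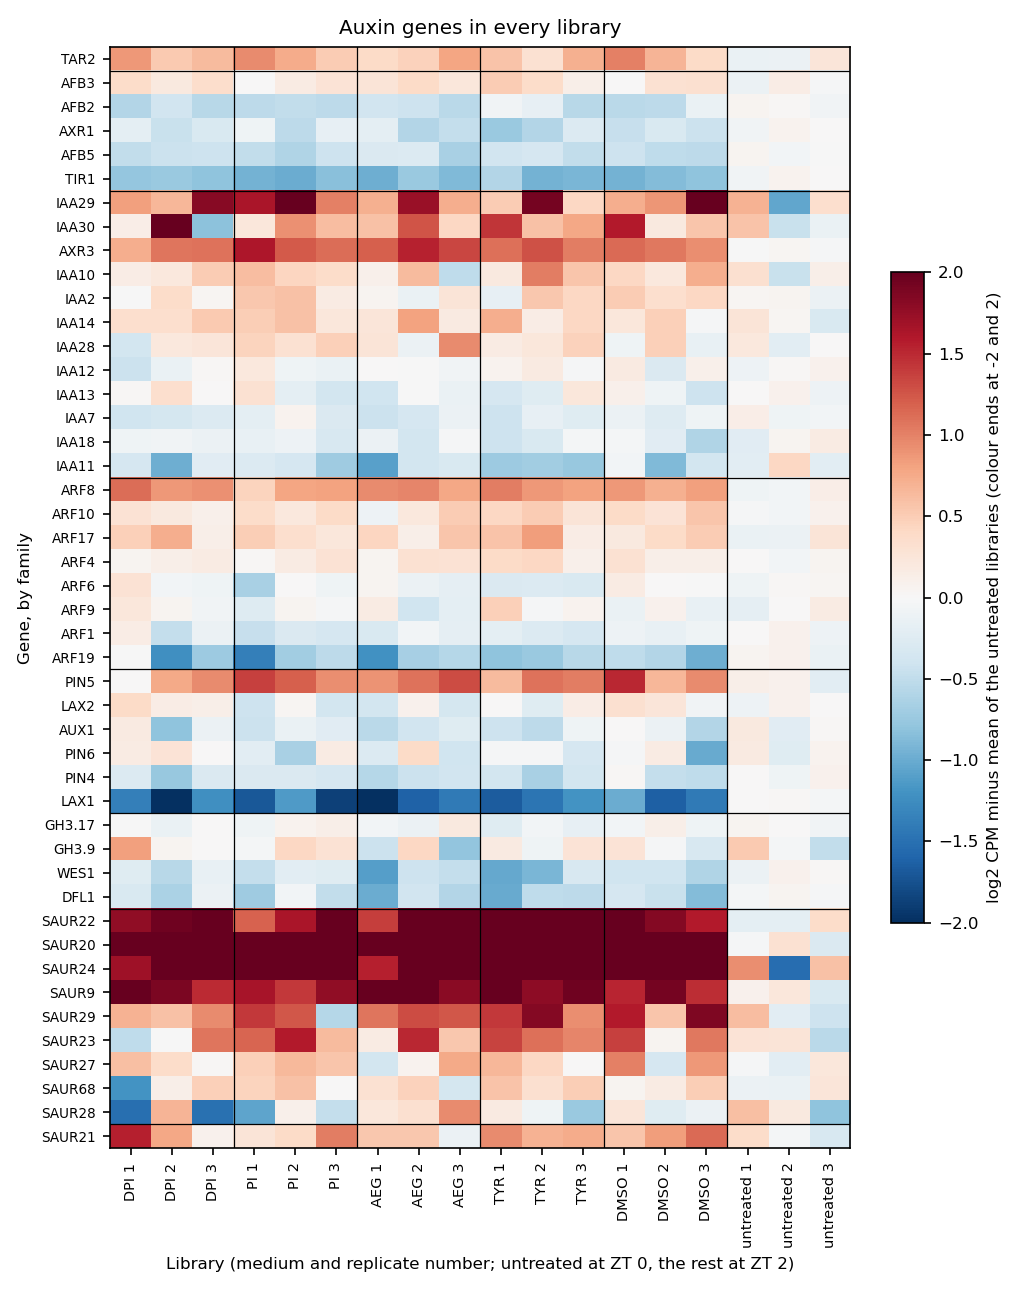
Log2 CPM of the 46 tested auxin genes (rows, by family) in each of the 18 libraries (columns, by medium and replicate), minus the mean of the 3 untreated libraries; red is higher, blue is lower, and colours end at -2 and 2. The cluster genes SAUR20 and SAUR24 are red and LAX1 and TIR1 are blue in all 15 ZT 2 libraries, while most Aux/IAA and ARF rows are pale.

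Against DMSO at the same time point, no auxin gene was called with any chemical. The share of all 9006 genes called by edgeR was 0% for each of DPI, PI, AEG and TYR. DESeq2 called none of the auxin genes with any chemical, and over all genes it called 1 with AEG and none with the others. At an unadjusted p under 0.05, edgeR had 0 auxin genes and 322 of all genes in DPI medium, 2 and 223 in PI, 4 and 302 in AEG, and 1 and 352 in TYR medium. The median half-width of the 95% intervals was 0.41 on the log2 scale in each of the 4 comparisons. These intervals are unadjusted, while calls were adjusted over 9006 genes. For a typical auxin gene, differences of that size and somewhat above could therefore also go uncalled at this depth and number of libraries. The 4 chemicals share the DMSO libraries and were given at different doses, so they were not compared with each other.

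The gene with the smallest unadjusted p is given for each chemical. With DPI it was SAUR24, with 5.16, 8.11 and 9.29 CPM in DPI libraries, against 13.8, 9.88 and 13.8 CPM in DMSO libraries (log2 fold change -0.73, 95% interval -1.60 to 0.13; edgeR, adjusted p = 0.99). The groups did not overlap, and the difference did not pass. With PI it was LAX2, with 34.1, 47.1 and 35.3 CPM in PI libraries, against 57.3, 54.2 and 43.6 CPM in DMSO libraries (log2 fold change -0.41, 95% interval -0.76 to -0.06; edgeR, adjusted p = 0.999). With AEG it was AXR3, with 195, 250 and 217 CPM in AEG libraries, against 187, 178 and 164 CPM in DMSO libraries (log2 fold change 0.32, 95% interval 0.03 to 0.62; edgeR, adjusted p = 0.999). With TYR it was ARF6, with 93.8, 95.2 and 92.3 CPM in TYR libraries, against 128, 115 and 114 CPM in DMSO libraries (log2 fold change -0.34, 95% interval -0.65 to -0.04; edgeR, adjusted p = 0.997). The groups overlapped for LAX2 and did not for AXR3 or ARF6.

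The auxin genes with the lowest and highest log2 fold changes lay at -0.76 and 0.42 in DPI medium, -0.57 and 0.54 in PI, -0.53 and 0.69 in AEG and -0.34 and 0.78 in TYR medium. The 95% interval of TIR1 was -0.15 to 0.34 for DPI, -0.29 to 0.19 for PI, -0.24 to 0.25 for AEG and -0.18 to 0.30 for TYR.

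**Figure D4:**
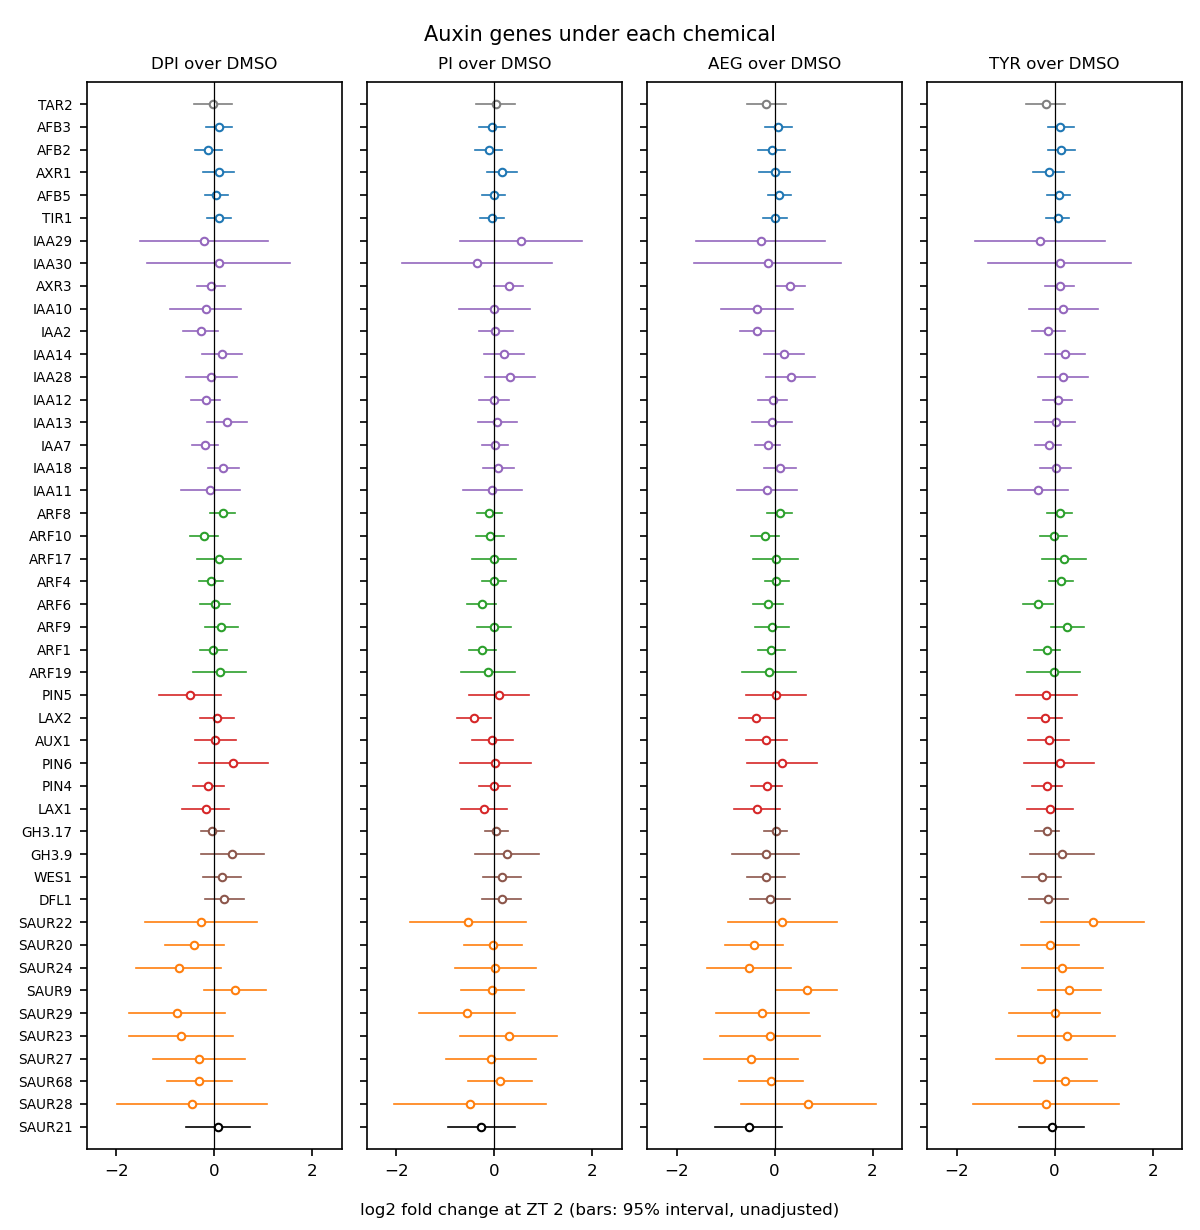
Log2 fold change of each chemical over DMSO at ZT 2 for the 46 tested auxin genes, with unadjusted 95% intervals from the edgeR fit and colours by family; open points mark genes that were not called. All points are open, and nearly all intervals include 0.

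Among the 15 ZT 2 libraries the auxin genes varied about as much as other genes. Among the 36 whose log2 CPM averaged 3 or more, the median SD of log2 CPM was 0.22, against 0.23 over 7486 genes. SAUR24 varied most, with an SD of 0.51 and values between 4.66 and 15.5 CPM, all above the untreated maximum of 2.78 CPM. It also had the lowest average of the 36, at a log2 CPM of 3.03, with 15 to 52 counts per ZT 2 library. The part of counting error in its SD was not tested.

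A list of 64 further genes of auxin synthesis, conjugation, transport kinases, co-repressors and linked light signalling held 26 that were in the table, of which 23 were tested. With DMSO 11 of these were called higher and 3 lower against untreated seedlings, where 19.6% of all genes were called higher and 16.0% lower. The median of their log2 fold changes was 0.84, and no gene of the list was called by edgeR in a chemical against DMSO. The highest of those called were PIF4, a bHLH factor that activates auxin synthesis genes, and UGT74E2, a glucosyltransferase of indole-3-butyric acid. PIF4 had 149, 168 and 200 CPM in DMSO libraries, against 10.2, 7.55 and 2.67 CPM in untreated libraries (log2 fold change 4.66, SE 0.25; edgeR, adjusted p = 1.17e-10). UGT74E2 had 64.5, 53.2 and 83.0 CPM in DMSO libraries, against 9.87, 6.95 and 5.63 CPM in untreated libraries (log2 fold change 3.16, SE 0.55; edgeR, adjusted p = 0.00014). The lowest of those called were ABCB21, an auxin transporter, and ILL2, a hydrolase of auxin conjugates. ABCB21 had 62.3, 18.8 and 49.6 CPM in DMSO libraries, against 100, 145 and 114 CPM in untreated libraries (log2 fold change -1.46, SE 0.37; edgeR, adjusted p = 0.00406). ILL2 had between 13.8 and 16.6 CPM in DMSO libraries, against 26.8, 24.8 and 20.7 CPM in untreated libraries (log2 fold change -0.67, SE 0.19; edgeR, adjusted p = 0.00776).

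The remaining genes of the list that are described here were named after their values were seen. ASA1, a subunit of anthranilate synthase upstream of tryptophan, CYP79B2, which makes indole-3-acetaldoxime from tryptophan, SUR1, of glucosinolate synthesis, and the nitrilase NIT1 were called higher with DMSO, with log2 fold changes of 2.07, 1.51, 2.59 and 1.80. TSB1, a tryptophan synthase subunit, was not called (log2 fold change 0.41; edgeR, adjusted p = 0.208). The amidohydrolases IAR3 and ILL6, which act on conjugates of auxin and of jasmonate, had log2 fold changes of 2.45 and 3.15 and were also called higher. IAR3 had 101, 536 and 240 CPM in DMSO replicates 1, 2 and 3, where LOX2 had 1060, 7400 and 2370 CPM, and the part of that state in these values was not tested.

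Marker lists of organs and cell types were set beside these results. Of 16 root markers 8 were in the table and 4 were tested, with 1 called higher and 1 lower with DMSO. The summed level of the 8 was 2200 to 2950 CPM in DMSO libraries, against 2590 to 3710 CPM in untreated libraries. Most of it was BGLU23, at 2110 to 2840 CPM and 2490 to 3600 CPM. Of 9 shoot markers 4 were tested and 0 were called by edgeR, with a summed level of 8500 to 11400 CPM in DMSO libraries, against 6900 to 8710 CPM in untreated libraries. Over the mean of the ZT 2 groups 3 of them were called by edgeR, RBCS2B and PSBY higher (log2 fold changes 0.40 and 0.33) and STM lower (-0.64). The 1 vascular marker tested, XCP2, was not called, with 33.7 to 86.4 CPM in DMSO libraries, against 77.9 to 95.9 CPM in untreated libraries. The root hair genes EXPA7, EXPA18 and RHD6 and the endodermal gene CASP4 had at most 3.32 CPM in these 6 libraries. Of the 3 guard cell markers tested, KAT1 and EPF2 were called higher with DMSO and HT1 was not. Over the mean of the ZT 2 groups KAT1 was called and EPF2 was not (edgeR, adjusted p = 0.143). The summed level was 80.7 to 109 CPM in DMSO libraries, against 40.5 to 56.0 CPM in untreated libraries. Most of it was KAT1, at 62.6 to 91.1 CPM and 27.2 to 40.3 CPM. No marker in the table was at 0 in every library, and the part of tissue make-up in the auxin genes' changes was not tested.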

How the data were processed

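Poly(A) RNA of 18 whole-seedling libraries was sequenced as paired reads on an Illumina HiSeq instrument, per the labels' protocols. The authors deposited 1 table with an FPKM, a TPM and an estimated count per gene and library, per the file headers. The submitters' processing notes name HISAT2 2.2.1, RSEM 1.2.22 and the build TAIR10 without their roles. Strand was not stated. Of 29431 lines, 11981 named a gene, with 11437 distinct gene identifiers, and 1 line was kept per identifier. Deposited TPM values of these genes came to 48.4% to 49.0% of the scale's total.

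Estimated counts, 3.59% of them not whole, were rounded and fitted in edgeR 4.0.16 (R 4.3.3, quasi-likelihood) with TMM scaling and filterByExpr, in 1 fit of all 18 libraries with 12 residual degrees of freedom and Benjamini-Hochberg adjustment over 9006 genes at 0.05. CPM values were scaled by TMM and a prior count of 2 went into log2 CPM. TPM values as deposited were used for levels between genes, and FPKM only to check gene identity. The pipeline was tested on simulated data. A floor of 3 counts was used for no fold here, and the counting interval of SAUR22 covers counting error only. Labels do not say whether replicates came from separate cultures, so p-values measure the spread between these libraries.

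The members, lists and motifs were chosen with earlier results of these data known. The text names the auxin genes called with DMSO with a log2 fold change of 1 or more in either direction, the gene of smallest p for each chemical, the gene of highest SD and the 2 highest and 2 lowest of the genes called with DMSO in the further list, and other genes were named after their values were seen. Upstream windows of 250 bases and coding sequences came from RefSeq TAIR10.1. A planned description of Aux/IAA protein sequences was not made here. Alternatives were DESeq2 1.42.0, no TMM, other count filters, a fit of just the 2 groups compared, a replicate block, FSD1 or LOX2 as a covariate, a fold minimum, a stricter threshold and leaving out each library. The fit without ZT 2 libraries of high FSD1 was chosen after seeing the data.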

Additional observations from a re-analysis of the deposited data

How the results depend on the processing

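Of 226 recomputed counts of called auxin genes, 197 stayed within 1.5 times the value reported and 29 did not. The 197 include every count for the 4 chemicals against DMSO, where no gene was called in the main fit. Such counts could not fall with a fold minimum or a stricter threshold, so the 197 overstates how steady the other counts were. No auxin gene was called with any chemical against DMSO by edgeR under any alternative, or by DESeq2. With DMSO against untreated seedlings the 11 genes called higher became 6 with at least 10 counts required in every library, which removed the low SAUR genes, 5 with LOX2 as a covariate and 7 with a log2 fold change of at least 1. The 7 called lower became 1 with LOX2, 1 with the fold minimum and 3 at an adjusted p under 0.01, and 3 to 6 when 1 library was left out. With LOX2 the calls against untreated seedlings were 1 in DPI medium, 6 in PI, 4 in AEG and 7 in TYR, and with the fold minimum 5 for DPI and 8 for each of PI, AEG and TYR. Over all genes the share called with LOX2 was 2.89% in DPI medium, 5.61% in PI, 4.1% in AEG and 8.31% in TYR. At an adjusted p under 0.01 they were 11 for AEG and 11 for TYR. For the mean of the ZT 2 groups the 14 genes called higher became 9 without TMM, 6 with at least 10 counts, 5 with LOX2, 8 with the fold minimum, 8 at 0.01 and 9 to 15 with 1 library left out, and the 11 called lower became 1 with LOX2 and 1 with the fold minimum. In either direction, 37.0% to 54.3% of the auxin genes were called with 1 library left out, against 39.2% to 50.0% of all genes. Over all genes the share called also fell with LOX2 as a covariate, from 35.6% to 5.51% with DMSO and from 49.7% to 5.66% for the ZT 2 mean. LOX2 did not overlap between time points, and the cause of its effect was not tested.

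Of 967 recomputed log2 fold changes of named genes, 819 kept their direction and side of the threshold, 143 lost the call and 5 changed sign, all with LOX2 as a covariate: SAUR21 had -0.48 with DMSO and -0.75 over the ZT 2 mean, IAA11 0.78, IAA14 -0.19 and IAA7 0.18. With DMSO, the calls of SAUR20, SAUR22, SAUR24, AXR3 and TIR1 held under each alternative that tested them.

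In no comparison were all 3 correlations of the deviations of same-numbered libraries over 0.1. With DMSO and untreated libraries they were 0.0378, -0.0167 and -0.022, and with TYR and DMSO libraries they were -0.156, -0.22 and -0.311. The high FSD1 state did go with replicate number in part, being in replicate 1 with DMSO, DPI, PI and AEG and in replicate 3 with TYR. In the fit with a replicate block, 11 auxin genes were called higher and 6 lower with DMSO, 12 higher and 10 lower over the ZT 2 mean, 14 in DPI medium, 14 in PI, 17 in AEG and 19 in TYR against untreated seedlings, and 0 with each chemical against DMSO. With DMSO this was 37.0% of the auxin genes, against 34.4% of all genes, and over the ZT 2 mean 47.8%, against 48.5%. The shares in DPI, PI, AEG and TYR medium were 30.4%, 30.4%, 37.0% and 41.3%. Over all genes they were 39.0%, 37.2%, 39.1% and 36.7%. No gene at all was called with a chemical against DMSO in that fit. The block ended the call of ARF19 with DMSO (edgeR, adjusted p = 0.0524) and those of IAA29, IAA7 and AFB3 over the ZT 2 mean (0.0658, 0.055 and 0.0515). Low counts limit the SAUR genes, with at most 10 counts for each of SAUR20, SAUR22, SAUR23 and SAUR24 in an untreated library.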
